A study of Mus musculus with 8 samples.

Results

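The genes described are the connexins of glial gap junctions in the mouse optic nerve (ON): *Gja1*, *Gjb6*, *Gjb2*, *Gjb1*, *Gjc3* and *Gjc1*. They were chosen by name, as connexins of astrocytes, oligodendrocytes (OLs) and vascular cells, and are 6 of the 33696 genes counted. RNA was counted in single nuclei of ONs taken at P120. Control replicates 1 to 4 came from *Piezo2f/f* mice, and replicates 10 to 13 carry the label *Olig2-cre;Piezo2f/f* cKO, with 4 libraries in each group. Each library pooled 6 ONs of 3 female mice, all on a C57BL/6J background. Both groups carried the floxed *Piezo2* alleles, and the second also carried Cre inserted into the coding exon of *Olig2*, which is active in the OL lineage. In OLs, *Piezo2* was not lower in the second group. It had 390 to 507 counts per 1000000 UMIs (CPM) in the control libraries against 519 to 571 CPM. *Olig2* itself had 23.8 to 40.5 CPM in control OLs and 44.1 to 51.9 CPM in the second group, so that the groups did not overlap. In OL precursor cells (OPCs) it had 108 to 216 CPM against 199 to 326 CPM. The log2 difference was 0.59 in OLs (adjusted p = 0.241) and 0.67 in OPCs (adjusted p = 0.473) by edgeR's quasi-likelihood test, and neither passed. Because counts of 3-prime ends do not show whether the floxed exons were missing, the level of *Piezo2* does not check the recombination, and the second group is called the libraries labelled cKO throughout.

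A library held 39628926 to 56541132 unique molecular identifiers (UMIs, 1 per counted transcript) and 3477 to 6190 nuclei after filtering, with a median of 2383.5 to 3313 UMIs per nucleus. The 37240 nuclei fell into 59 clusters, and 34456 nuclei were given 1 of 10 cell types by marker genes. These were astrocytes, OLs, oligodendrocyte precursor cells (OPCs), committed OPCs, endothelial cells, mural cells, fibroblasts, myeloid cells, T cells and neurons. The 6 connexins, *Piezo2* and *Olig2* were left out of the genes used for clustering, so that the cell types were defined without them. The markers of 8 types were each highest in their own type, as were 5 of 7 astrocyte markers and 7 of 8 myeloid markers. RNA from outside nuclei was estimated from OL transcripts, in the cell type of each library with the lowest estimate, which was astrocytes or fibroblasts. It made up 11.5% to 23.5% of the UMIs there, and the share in other types can be higher. The 7 OL markers summed to 9282 to 17427 CPM in control T cells, against 2162 to 3274 CPM in control astrocytes. At most 0.303% of barcodes were shared between any pair of libraries.

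Connexins are membrane proteins that assemble in hexamers, and hexamers of adjacent cells dock to form channels for ions and small metabolites. Astrocytes are coupled to each other through channels of *Gja1* (Cx43) and *Gjb6* (Cx30), with *Gjb2* (Cx26) as a debated further member, and to OLs, which use *Gjb1* (Cx32) in myelin. This panglial network is known for taking up and spreading the potassium that axons release. *Gjc3* (Cx29) lies in the inner myelin membrane facing the axon, and *Gjc1* (Cx45) is a connexin of vascular smooth muscle and other contractile cells. *Gja1*, *Gjb2* and *Gjb6* are also known from the leptomeninges, the fibroblast sheath that surrounds the brain and the ON.

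*Gjb2* and *Gjb6* are neighbours on the minus strand of chromosome 14 (GRCm39). *Gjb2* lies at chr14:57335919-57342240 and *Gjb6* at chr14:57360757-57371087, with 18516 bases between them. Elsewhere, *Gja1* lies at chr10:56253241-56278609 on the plus strand, *Gjc3* at chr5:137949252-137961723 on the minus strand and *Gjc1* at chr11:102686879-102710532 on the minus strand. Both genes had their highest level in the same cell type, so the sequences before their start sites are shown to compare their CpG content, together with that of *Gjb1*, which was highest in OLs and lies at chrX:100419984-100429547 on the plus strand. They are written 5′ to 3′ and come from windows of 250 bases before the start of each gene's canonical transcript. For *Gjb1* another annotated transcript starts further upstream, so that its window lies within the gene's outer bounds. Capitals mark CG dinucleotides. For *Gjb2*, only the part of the window that overlaps no exon of another transcript is shown, chr14:57342241-57342416 on the minus strand, which stops 74 bases short of the canonical start.
Gjb2: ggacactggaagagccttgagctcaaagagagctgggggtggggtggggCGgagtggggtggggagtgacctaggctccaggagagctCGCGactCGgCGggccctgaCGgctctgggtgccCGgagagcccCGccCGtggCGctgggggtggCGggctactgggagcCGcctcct
Gjb6, chr14:57371088-57371337, minus strand: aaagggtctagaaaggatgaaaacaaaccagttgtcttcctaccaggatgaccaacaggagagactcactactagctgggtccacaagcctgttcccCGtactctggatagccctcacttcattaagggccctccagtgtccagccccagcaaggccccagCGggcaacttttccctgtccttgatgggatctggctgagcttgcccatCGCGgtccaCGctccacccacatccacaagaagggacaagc
Gjb1, chrX:100420624-100420873, plus strand: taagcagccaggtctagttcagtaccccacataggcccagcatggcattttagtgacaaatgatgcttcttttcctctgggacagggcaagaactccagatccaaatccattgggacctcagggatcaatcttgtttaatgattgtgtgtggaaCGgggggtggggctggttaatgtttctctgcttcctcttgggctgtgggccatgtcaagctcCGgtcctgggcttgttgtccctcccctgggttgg
The stretch shown for *Gjb2* holds 12 CG dinucleotides in 176 bases, against 5 in 250 bases for *Gjb6* and 2 in 250 bases for *Gjb1*. Over the whole window of 250 bases, *Gjb2* had 18 CG dinucleotides, and 18.1% of 21770 promoters had more. The same window had 5 for *Gjb6*, with 58.7% of promoters above it and a median of 8 over all promoters. The windows of the other members, which overlap exons and are not shown, held 23 for *Gjc1*, 6 for *Gja1* and none for *Gjc3*, as did 7.39% of all promoters. The pair of neighbouring genes with the same leading cell type thus differed in this measure.

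Levels were then compared between cell types. UMIs were summed per library and cell type and divided by the total of that sum to give CPM. Every value below is such a level, compared for 1 gene between cell types and never between genes. In the control libraries, 8 cell types had sums in all 4 libraries, and the highest type of each gene was compared with the other 7 in edgeR's quasi-likelihood test, called at an adjusted p (Benjamini-Hochberg) under 0.05 and a log2 difference over 0.5. Of 35 such contrasts for 5 members, 32 were called. Over all genes and all pairs of types, the share called was 36.3% in the control libraries. Highest types were picked by their level, so this count is a description of how far each gene stood above its other types.

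*Gja1*, the main connexin of astrocytes, was highest in astrocytes and nearly as high in fibroblasts. Its level in astrocytes was 323, 372, 487 and 540 CPM in control replicates 1 to 4, with a mean of 431 ± 100 (SD, n = 4). In fibroblasts it was 286, 345, 335 and 348 CPM, so the values of both types overlapped. The difference was 0.48 ± 0.19 (log2, SE; 95% interval 0.09 to 0.87; adjusted p = 0.0404), below the required size. Of all genes, 42.3% were called between astrocytes and fibroblasts. After each nucleus was thinned to 1000 UMIs, a *Gja1* UMI was found in 25.9% to 42.1% of astrocytes and 21.8% to 25.4% of fibroblasts per library. The share was 4.88% to 6.42% in OLs, which are not known for *Gja1*. The part of free RNA in the OL share was not tested. Before thinning the shares were 52.6% to 72.0% in astrocytes, 42.9% to 56.4% in fibroblasts and 9.93% to 16.8% in OLs, at median depths of 2853.5 to 3282, 2674 to 3587 and 2228 to 2988 UMIs per nucleus.

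Endothelial cells followed with 85.2, 129, 109 and 179 CPM of *Gja1*, all below every astrocyte and fibroblast value. Astrocytes were 1.92 ± 0.26 above them on the log2 scale (adjusted p = 6.6e-08). OLs had 42.6, 62.9, 42.8 and 50.6 CPM, and astrocytes exceeded them by 2.88 ± 0.21 (adjusted p = 1.69e-15). T cells, myeloid cells, OPCs and neurons had mean levels of 118, 68.2, 31.5 and 23.0 CPM. The markers that define astrocytes separated them from fibroblasts by more than *Gja1* did. *Aqp4*, a water channel, was 4.25 higher in astrocytes on the log2 scale and *Slc1a2*, a glutamate transporter, was 4.18 higher, whereas the glutamine synthetase gene *Glul* was lower in astrocytes (-1.85).

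*Gjb2* was found mainly in fibroblasts. Its levels were 68.0, 83.4, 154 and 126 CPM in fibroblasts of the control libraries, with a mean of 108 ± 39.4 (SD, n = 4). Astrocytes had 6.07, 3.90, 9.95 and 8.61 CPM, and no astrocyte value came near a fibroblast value. The difference was 3.89 ± 0.30 (log2, SE; adjusted p = 5.97e-14), and all 7 contrasts of fibroblasts were called. Fibroblasts exceeded OLs by 3.55 and endothelial cells by 2.62 on the same scale. After thinning, a *Gjb2* UMI was found in 6.25% to 13.7% of fibroblasts and in 0.336% to 0.986% of astrocytes. Before thinning the shares were 15.1% to 34.0% and 0.982% to 3.04%. After thinning the astrocyte share was no higher than the 0.647% to 1.23% of OLs, a cell type not known for *Gjb2*, and no expression in astrocytes is read from it. Between astrocytes and OLs, *Gjb2* was not called (OLs higher by 0.34; 95% interval -0.33 to 1.01; adjusted p = 0.40). No *Gjb2* UMI was counted among the 181484 UMIs of T cells in the control libraries, which allows a level of up to 16.5 CPM (3 counts, counting error only).

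*Gjb6* was also highest in fibroblasts, although it is used as an astrocyte connexin. Fibroblasts had 105, 121, 233 and 118 CPM, with a mean of 144 ± 59.7 (SD, n = 4). The level of 233 came from control replicate 3 and stood apart from the others. That library also held the highest sum of 5 pituitary markers in every cell type, not in fibroblasts alone. The sum was 1318 CPM in fibroblasts against a control median of 128 CPM, 1113 against 85.8 CPM in astrocytes and 1067 against 86.3 CPM in OLs. The library held 88.5% of a cluster of 96 nuclei led by *Prl* and *Gh*. The part of such tissue in the *Gjb6* level was not tested. Astrocytes had 19.1, 13.6, 36.7 and 16.9 CPM, and again replicate 3 was highest. Fibroblasts exceeded astrocytes by 2.74 ± 0.26 (log2, SE; adjusted p = 8.54e-12), or by 2.71 without control replicate 3, and all 7 contrasts of fibroblasts were called. Endothelial cells, with 32.0, 24.2, 39.1 and 16.3 CPM, overlapped astrocytes and did not differ from them beyond their spread (0.46; adjusted p = 0.515). Astrocytes were nevertheless above OLs, which had 4.49, 6.70, 12.4 and 4.64 CPM. That difference was 1.28 ± 0.29 (adjusted p = 0.000248) and was 1.25 ± 0.21 (adjusted p = 2.92e-06) in the libraries labelled cKO. A *Gjb6* UMI was found in 1.12% to 3.35% of thinned astrocytes, 0.566% to 1.34% of OLs and 9.82% to 20.8% of fibroblasts. Before thinning these shares were 4.48% to 9.13%, 1.08% to 3.58% and 21.7% to 46.7%.

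Fibroblast clusters differed widely in *Gjb2* and *Gjb6*. The values of a cluster are given as a description, with no test, since clusters were formed from the same nuclei. In the cluster led by *Slc7a11* and *Slc6a20a* (466 nuclei), *Gjb2* had 182, 310 and 347 CPM as its lowest, median and highest library, and *Gjb6* had 233, 373 and 517 CPM. This cluster held the highest pooled level of both genes, and 31.8% of its nuclei came from control replicate 3. For *Gjb6*, the cluster led by *Trpm3* and *Ranbp3l* (647 nuclei) came next with a median of 257 CPM, and the cluster led by *Igfbp3* and *Ccn2* (537 nuclei) had 78.9 CPM. For *Gjb2* that pair of clusters stood the other way round, with medians of 116 CPM in the *Trpm3* cluster and 159 CPM in the *Igfbp3* cluster. The lowest medians, 27.1 CPM for *Gjb2* and 40.2 CPM for *Gjb6*, were those of the cluster led by *Slc47a1* and *Col25a1*.

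*Gja1* was spread more evenly over fibroblast clusters than *Gjb2* and *Gjb6*. Its median was 467 CPM in the *Trpm3* cluster, 422 CPM in the *Igfbp3* cluster, 287 CPM in the *Slc7a11* cluster and 172 CPM in a cluster led by *Lama1* and *Cemip*. Among astrocyte clusters the pooled *Gja1* level ranged from 396 to 575 CPM. *Gjb6* in astrocytes ranged from a pooled 8.23 CPM in a cluster led by *Chl1* and *Iffo2* to 68.6 CPM in the cluster led by *C530044C16Rik*, *Lgi1* and *Myoc* (488 nuclei), whose libraries lay between 40.2 and 98.3 CPM. An astrocyte cluster led by *Id4*, *Mt1* and *Gfap* had a pooled *Gjb2* level of 44.0 CPM, with libraries from 0 to 93.8 CPM. Its median of 989 UMIs per nucleus was low, and the part of depth in this value was not tested. Within fibroblasts, 43.5% to 63.4% of nuclei with a *Gjb2* UMI also had a *Gjb6* UMI, against 17.7% to 38.1% of nuclei without. Nuclei with a *Gjb2* UMI were deeper, with medians of 3020 to 5014 UMIs against 2456 to 3567.

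**Figure D1:**
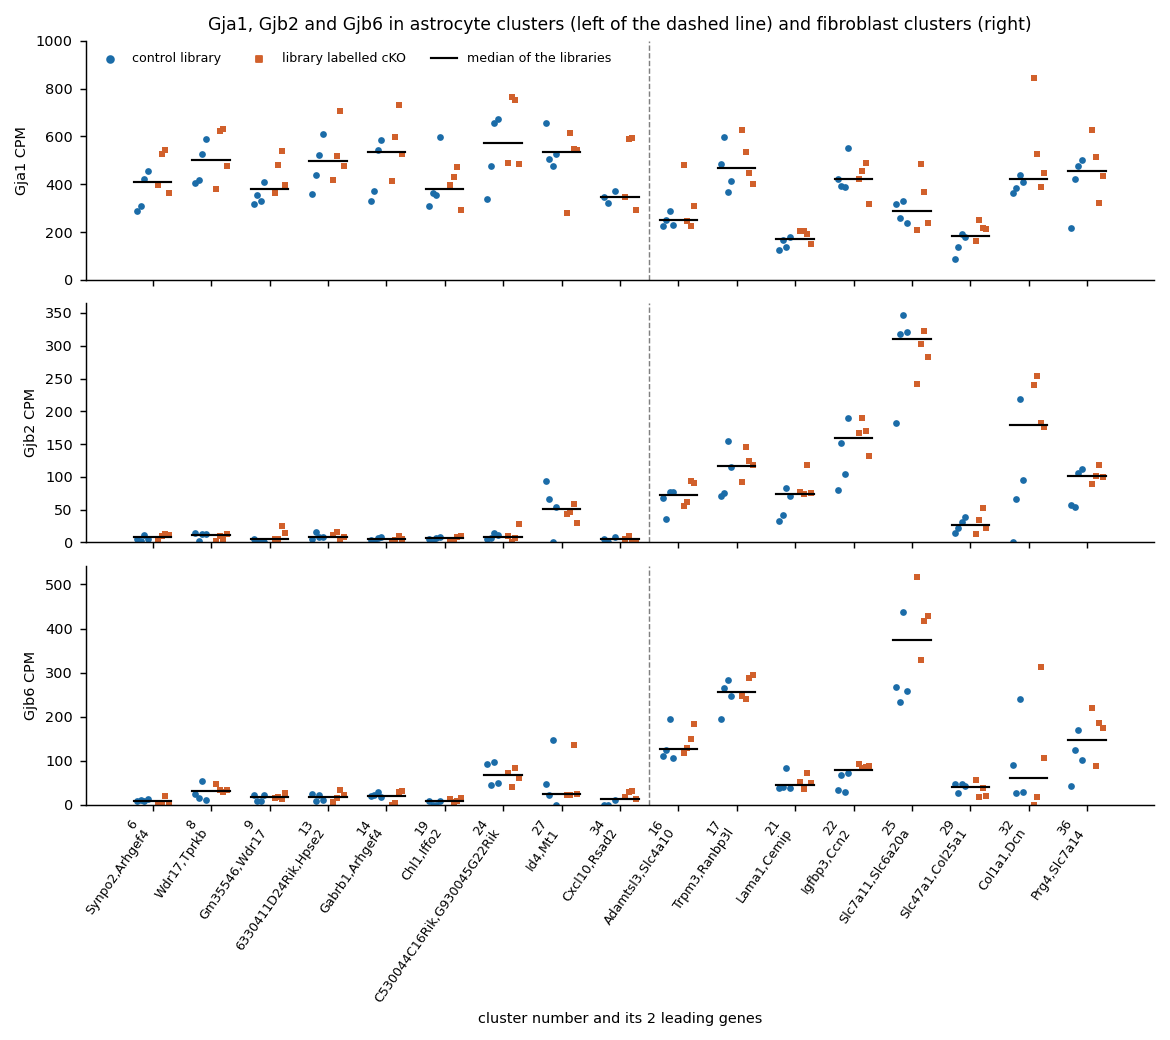
Levels of *Gja1*, *Gjb2* and *Gjb6* in CPM (linear axes) in the clusters of astrocytes and fibroblasts. Each point is 1 library with at least 10 nuclei in that cluster, and bars mark medians. *Gjb2* and *Gjb6* peak in the fibroblast cluster led by *Slc7a11*, with medians of 310 and 373 CPM, while *Gja1* is high in every astrocyte cluster.

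*Gjb1*, a connexin of myelin, had its highest level in OLs. The control libraries had 51.6, 75.8, 87.3 and 100.2 CPM in OLs, a mean of 78.7 ± 20.7 (SD, n = 4). OLs exceeded astrocytes by 2.33 ± 0.23 (log2, SE; adjusted p = 9.17e-12) and OPCs by 1.64 ± 0.32 (adjusted p = 3.74e-05). The 1 contrast not called was that with T cells, where *Gjb1* had 65.1, 114, 29.2 and 50.1 CPM (0.78 ± 0.49; adjusted p = 0.284). The median of all genes in that contrast was 0.45. T cells carried OL transcripts in general. Their summed CPM of the 7 OL markers was 9282 to 17427, against 19733 to 24430 in OLs and 2629 to 5293 in fibroblasts, and the part of OL RNA in the T cell level was not tested. After thinning, a *Gjb1* UMI was found in 5.28% to 9.79% of OLs and in 1.01% to 2.32% of astrocytes, and before it in 11.7% to 27.4% and 3.90% to 7.71%.

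*Gjc3* marked the whole OL lineage. It had 580, 699, 586 and 572 CPM in OPCs and 548, 533, 512 and 547 CPM in OLs of the control libraries. The ranges did not overlap, but the fitted difference of OPCs and OLs was 0.11 ± 0.26 (log2, SE; 95% interval -0.41 to 0.64; adjusted p = 0.77) and was not called. Of all genes, 38.8% were called between OLs and OPCs. OPCs exceeded astrocytes, which had 25.0 ± 8.13 CPM (SD, n = 4), by 4.79 ± 0.31 (adjusted p = 2.33e-16). A *Gjc3* UMI was found in 39.5% to 41.6% of thinned OLs, 44.5% to 48.6% of thinned OPCs and 1.47% to 3.35% of thinned astrocytes. Before thinning these shares were 64.9% to 75.9%, 80.0% to 90.0% and 4.57% to 8.91%, at a median depth of OPCs of 3357 to 4070 UMIs.

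Committed OPCs, the cells between OPCs and OLs, held the highest *Gjc3* level of any type. Sums were available in 3 control libraries, with 1535, 840 and 1388 CPM in replicates 1, 2 and 3. In a fit added to admit types with sums in fewer libraries, committed OPCs exceeded OLs by 0.96 ± 0.29 (log2, SE; adjusted p = 0.0149), which passed, and OPCs by 0.87 ± 0.30 (adjusted p = 0.0574), which did not. In the libraries labelled cKO, *Gjc3* in these cells had 905, 1043, 1075 and 1800.5 CPM, and both differences passed, at 1.01 (adjusted p = 0.000872) and 0.96 ± 0.23 (adjusted p = 0.00266). T cells had 282, 196, 58.4 and 225 CPM of *Gjc3* and fibroblasts 30.2, 67.0, 71.3 and 89.6 CPM. These types also carried the OL marker sums given above, whose part in the *Gjc3* levels was not tested, and fibroblasts exceeded astrocytes by 1.31 ± 0.29 in *Gjc3* (adjusted p = 0.00024).

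OL clusters differed less in these genes than fibroblast clusters did in *Gjb2* and *Gjb6*, as a description without test. Pooled levels over OL clusters ranged from 59.96 to 130 CPM for *Gjb1* and from 381 to 589 CPM for *Gjc3*. The lowest *Gjc3* level was that of a cluster with a low depth, a median of 1107 UMIs per nucleus. The cluster with the highest *Gjc3* level had the lowest of *Gjb1*. Another cluster came almost wholly from 1 library, control replicate 3, with 86.4% of its nuclei, and had 88.7 CPM of *Gjb1* and 529 CPM of *Gjc3*, within the range of the others.

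*Gjc1* was a gene of vascular cells, at few counts. Mural cells, which include smooth muscle and pericytes, had sums in 2 control libraries, with 222 and 203 CPM from 12 UMIs in all. Endothelial cells had 107, 72.5, 25.1 and 16.3 CPM from 30 UMIs, a mean of 55.1 ± 42.2 (SD, n = 4), a wide spread between replicates. Fibroblasts had 16.8, 13.4, 12.9 and 8.34 CPM, astrocytes a mean of 5.20 ± 1.18, and OLs a mean of 0.418 CPM from 10 UMIs. *Gjc1* was too low for the control fit. In the libraries labelled cKO, where endothelial cells had 67.2, 53.3, 71.7 and 69.9 CPM from 42 UMIs, they exceeded fibroblasts by 2.52 ± 0.36 (log2, SE; adjusted p = 7.09e-07) and astrocytes by 3.51. *Gjc1* passed the filter on low counts there only through its endothelial level. Fibroblasts had 10.3 to 11.1 CPM and astrocytes 3.40 to 6.64 CPM. These differences are therefore a description and no separate support for a vascular pattern. The value of mural cells was 1.72 ± 0.64 above that of endothelial cells in the added control fit (adjusted p = 0.186), which was not called.

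**Figure D2:**
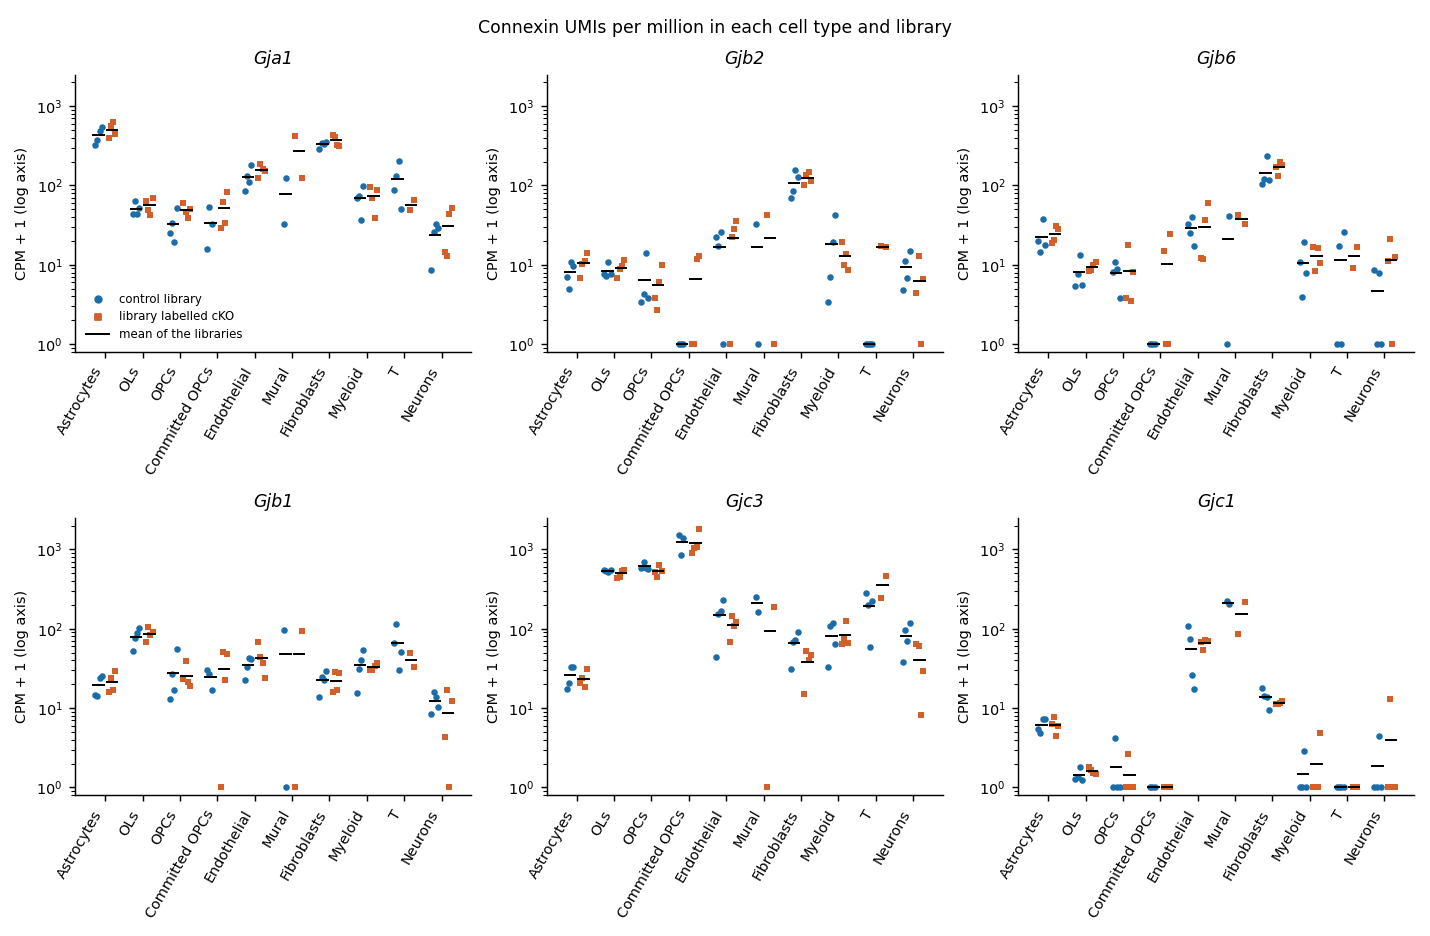
Level of each connexin as CPM + 1 (log axis) by cell type. Each point is the sum of 1 library, with control libraries and libraries labelled cKO in different colours, and lines mark means. *Gja1* leads in astrocytes and fibroblasts, *Gjb2* and *Gjb6* in fibroblasts, *Gjb1* and *Gjc3* in the OL lineage and *Gjc1* in mural and endothelial cells.

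In the libraries labelled cKO, which form separate samples, each member had the same leading type as in the control libraries. Committed OPCs had sums in all 4 of these libraries and T cells did not. Over all genes and pairs of types, 38.3% were called there. Astrocytes for *Gja1*, fibroblasts for *Gjb2* and *Gjb6* and OLs for *Gjb1* were called against all 7 others, and OPCs were called against 5 of 6 lower types for *Gjc3*. Endothelial cells were also called against all 7 others for *Gjc1*. That gene entered this fit only through its endothelial level, so its calls are a description. *Gja1* in astrocytes had 392, 562, 624 and 444 CPM and in fibroblasts 429, 410, 327 and 317 CPM. The difference was 0.52 ± 0.18 (log2, SE; adjusted p = 0.0131), which passed in this group by little, as it missed by little in the control group. *Gjb2* had 99.1, 133, 146 and 114 CPM in fibroblasts and *Gjb6* had 171, 131, 198 and 178.5 CPM. Both were above every astrocyte value of these libraries, of which the highest were 13.0 and 29.6 CPM.

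Genes with the most similar pattern were sought for each member over the 37 sums of cell type and control library, among 14180 genes. Pearson's r of log2(CPM + 1) is a description here, since sums of 1 library share its depth and background. For *Gjb1*, the nearest genes were *Efnb3* (r = 0.90), *Nkx6-2* (0.86) and *Hapln2* (0.85), of which *Hapln2* encodes a link protein of the nodes of Ranvier. For *Gjc3* they were *Bcas1* (0.96), *Pde4b* (0.90) and *1700047M11Rik* (0.89), of which *Bcas1* is itself a marker used for committed OPCs. For *Gjb6* they were *Slc22a6* (0.87), *Igfbp2* (0.84) and *Loxl2* (0.83), and for *Gjb2* they were *Egr1* (0.89), *Tspan11* (0.82) and *Gpc3* (0.81). *Slc22a6* encodes an organic anion transporter and *Egr1* is an immediate early gene. For *Gja1* they were *Aebp1* (0.87), *Nudt4* (0.87) and *Pygb* (0.84), the last being brain glycogen phosphorylase. For *Gjc1* they were *Kcne4* (0.89), *Tinagl1* (0.87) and *Abcc9* (0.87), and *Abcc9*, a subunit of potassium channels, is a mural marker. Over the 36 sums of the libraries labelled cKO, the nearest genes had r = 0.97 for *Bcas1* (*Gjc3*), 0.84 for *Aebp1* (*Gja1*), 0.54 for *Slc22a6* (*Gjb6*), 0.51 for *Egr1* (*Gjb2*), 0.50 for *Efnb3* (*Gjb1*) and 0.34 for *Kcne4* (*Gjc1*). Of the other genes named, *Loxl2* was lowest at 0.40, and r stayed at 0.79 for *Hapln2* and 0.85 for *Abcc9*.

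The next comparison asked whether connexin levels differed between genotypes within a cell type. Of 27 pairs of member and cell type that could be tested, in 9 cell types, none was called by edgeR. At an unadjusted p under 0.05 there was 1 by edgeR and none among the 48 pairs that DESeq2 tested, which also made no call. The share called over all genes was 0.0% in astrocytes, 0.0831% in OLs, 0.199% in OPCs, 0.0% in fibroblasts and 0.0% in the other 6 types together, so few genes of any kind were called in this comparison. Log2 differences of the libraries labelled cKO from the control libraries ran from -0.75 to 0.78 with a median of 0.13, and 15 of 27 were above 0. The lowest adjusted p was 0.738. Groups did not overlap in 2 of 60 pairs with levels, *Gja1* in mural cells and *Gjb2* in T cells, both from few UMIs. Mural cells had sums in 2 control libraries and 2 labelled cKO, and T cells in 4 and 2. The share of all genes without overlap was not counted, so no result is read from these pairs.

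*Gja1* in astrocytes differed by 0.23 (95% interval -0.15 to 0.61), an interval of folds from 0.90 to 1.53. Its means were 431 ± 100 CPM in the control libraries and 506 ± 106 CPM in the libraries labelled cKO, with overlapping values. In OPCs the *Gja1* difference was 0.60 (95% interval -0.02 to 1.21; unadjusted p = 0.0576). In OLs of the libraries labelled cKO, *Gjb1* had 67.7, 103, 82.0 and 89.1 CPM and *Gjc3* had 438, 454, 541 and 554 CPM, and both overlapped the control values. For these connexins of OLs, the intervals were -0.28 to 0.50 around 0.11 for *Gjb1* and -0.35 to 0.10 around -0.12 for *Gjc3*. *Gjc3* in OPCs differed by -0.20, with 523, 453, 636 and 536 CPM in the libraries labelled cKO. In fibroblasts, *Gjb2* differed by 0.17, *Gjb6* by 0.21 and *Gjc1* by -0.26. The 1 pair with an unadjusted p under 0.05 was *Gjc3* in fibroblasts. In the control libraries it had 30.2 to 89.6 CPM, and replicates 10 to 13 had 14.03, 51.2, 39.8 and 45.4 CPM (-0.74 ± 0.31, log2 and SE; unadjusted p = 0.0301; adjusted p = 0.997). The OL marker sum in fibroblasts was 2450 to 4563 CPM in these libraries and 2629 to 5293 CPM in the control libraries, and its part in the *Gjc3* value was not tested. These intervals show which sizes of change the data leave possible, and do not show that levels were equal.

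**Figure D3:**
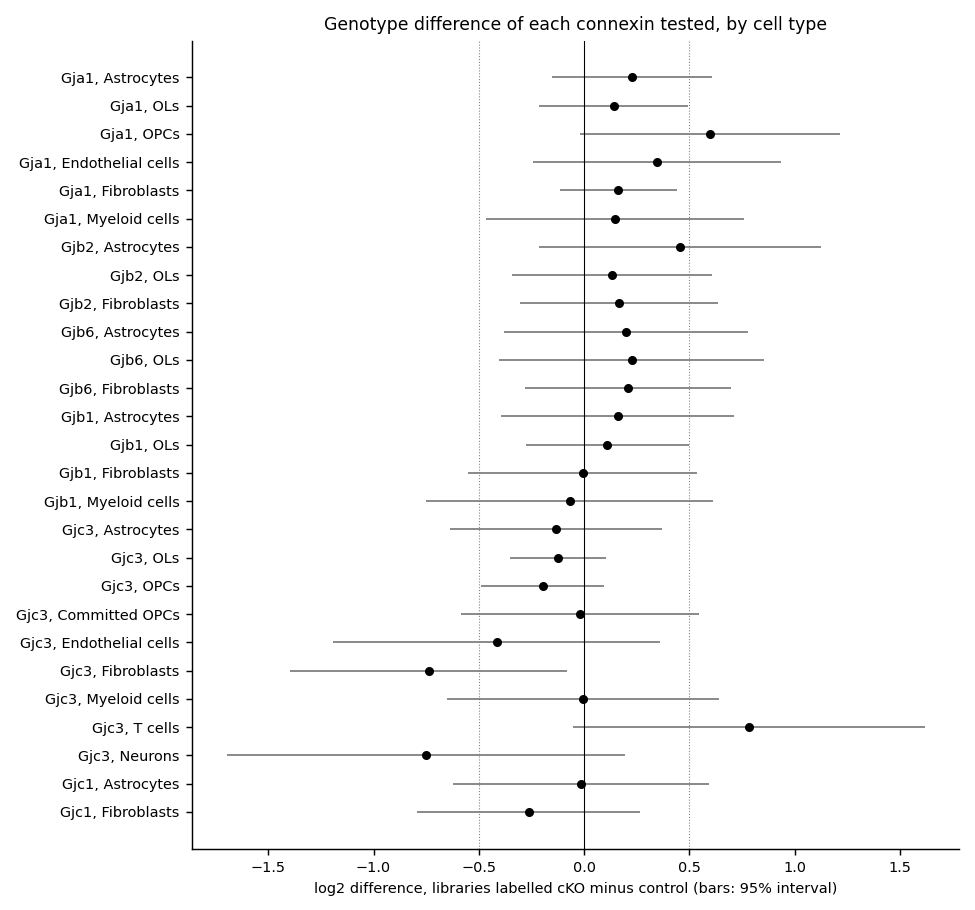
Log2 difference of the libraries labelled cKO from the control libraries for each of the 27 tested pairs of member and cell type. Points are edgeR estimates, bars are 95% intervals and dotted lines mark a difference of 0.5 either way. The interval of *Gjc3* in fibroblasts (-0.74) lies below 0 and those of the other 26 pairs include it.

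Whether the genotype difference in astrocytes was unlike that in fibroblasts was tested as an interaction. None of the 6 members was called, and 0.0% of all genes were. By edgeR and by DESeq2, 0 members had an unadjusted p under 0.05. The difference between both cell types was 0.03 for *Gja1* (95% interval -0.45 to 0.52), -0.04 for *Gjb6* (-0.86 to 0.78) and 0.57 for *Gjc3* (-0.32 to 1.46).

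The deposited counts keep every barcode. Barcodes of 1 to 100 UMIs that were not called as nuclei are referred to as outside nuclei. A control library had 674681 to 916077 such barcodes, which held 882675 to 1294855 UMIs together, so most held very few. Whether all of this RNA came from outside nuclei was not tested. Connexin levels there were compared with those of the kept nuclei of the same control libraries. In this comparison 40.2% of all genes were called, and so were 4 of the 6 members. *Gjb1* had 96.0, 118, 121 and 123 CPM outside nuclei and 32.3, 47.8, 51.8 and 57.8 CPM in nuclei, with no overlap. The difference was 1.44 ± 0.18 (log2, SE; adjusted p = 5.12e-05), higher in 4 of 4 libraries. *Gja1* had 300.0, 341, 176 and 349 CPM outside nuclei and 152, 173, 155 and 254 CPM in nuclei (0.82 ± 0.22; adjusted p = 0.00876), again higher in 4 of 4 libraries. *Gjb2* averaged 43.8 CPM outside against 23.5 CPM inside (1.07 ± 0.40; adjusted p = 0.0454). *Gjb6* averaged 57.1 CPM against 32.2 CPM (1.02 ± 0.40; adjusted p = 0.0557) and was not called. It was called when library, which pairs both sums, was added as a block (1.01; adjusted p = 2.2e-11). Without control replicate 2, *Gja1* (0.72) and *Gjb2* (1.08) lost their call and 2 members were called. *Gjb2* also lost it without control replicate 1 (0.94), without control replicate 4 (1.11) and with library size in place of TMM, the scaling between sums (0.91; adjusted p = 0.0667).

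*Gjc3* went the other way. It had 199.6, 180, 179 and 172 CPM outside nuclei and 306, 319, 300.0 and 281 CPM in nuclei, a difference of -0.56 ± 0.12 (adjusted p = 0.0021). The connexins of OLs were therefore on opposite sides in this measure, *Gjb1* higher and *Gjc3* lower outside nuclei. *Gjc1* averaged 3.99 CPM outside and 4.79 CPM inside (-0.07) and was not called. Droplets of the empty plateau, with over 100 and under 500 UMIs, gave more counts per gene, and 71.7% of all genes were called between them and nuclei. All 6 members were called there, at 2.18 for *Gjb1*, 1.77 for *Gjb2*, 1.57 for *Gja1*, 1.38 for *Gjb6*, 0.51 for *Gjc1* and -0.52 for *Gjc3*. TMM moved these values. With library size alone, the median over all genes shifted from -0.05 to -0.58 and the members had 1.64, 1.24, 1.03, 0.85, -0.02 and -1.05 in the same order, so that *Gjc1* turned below 0 and *Gjb6* was not called (adjusted p = 0.0595). Between genotypes, no member was called outside nuclei by edgeR or DESeq2, with 0 of 5 tested by edgeR and 0 of 6 by DESeq2 at an unadjusted p under 0.05. There, 0.0611% of all genes were called by edgeR at 1 to 100 UMIs and 0.0221% in the plateau. The material of each cell type outside nuclei cannot be told apart in these sums.

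**Figure D4:**
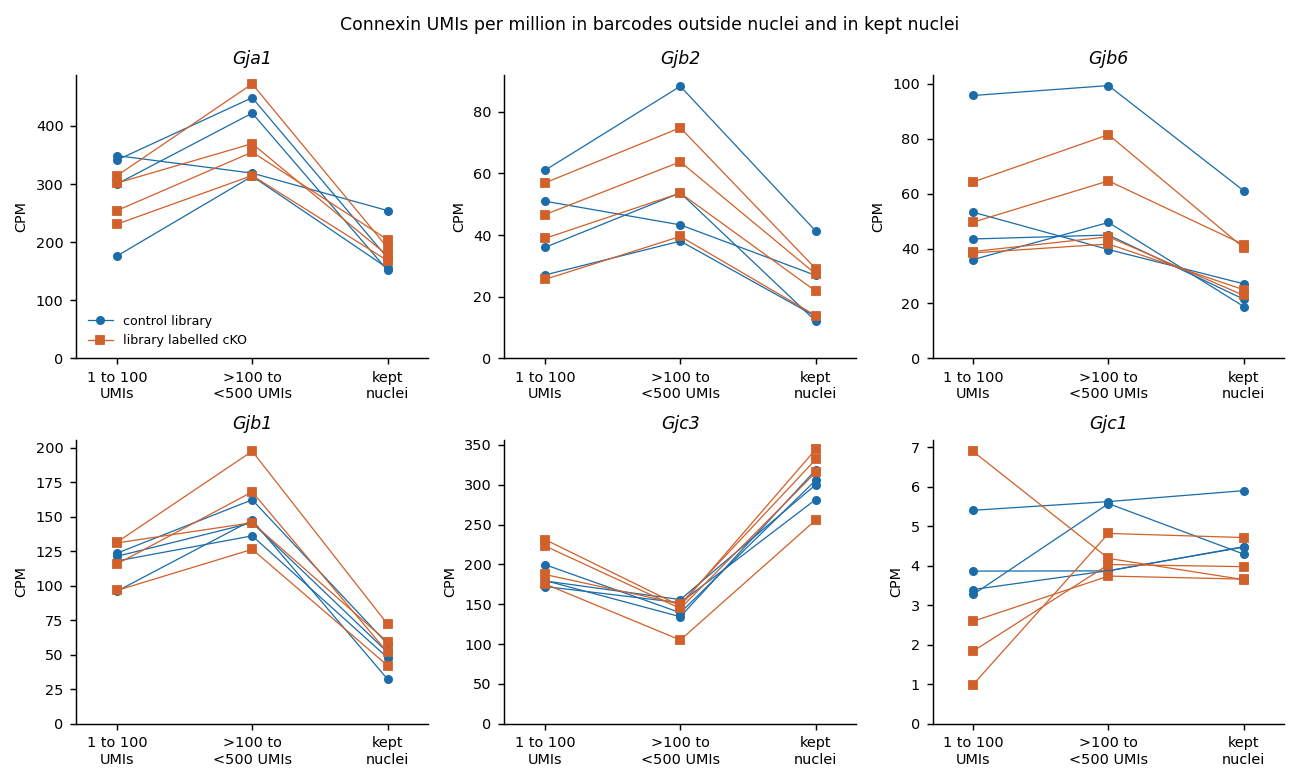
Level of each member in CPM (linear axes from 0) in barcodes of 1 to 100 UMIs, in barcodes of over 100 and under 500 UMIs and in kept nuclei. Each line joins the values of 1 library. *Gjb1* has a control mean of 115 CPM at 1 to 100 UMIs and 47.4 CPM in nuclei, and *Gjc3* has 183 and 301 CPM.

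Other genes of the junction were taken from lists of 36 genes. Of other connexins and pannexins, *Gja4*, a connexin of arterioles, had its highest control level in mural cells, 56.4 CPM from 3 UMIs, and *Gja5* in endothelial cells, 7.59 CPM from 9 UMIs. *Panx1*, which forms channels in a single membrane, had 26.1 CPM in committed OPCs from 6 UMIs, 18.4 CPM in neurons and 13.0 CPM in OPCs. None of this list was high enough to be tested between astrocytes and fibroblasts. Outside nuclei, 0 of 1 tested was called by edgeR at 1 to 100 UMIs, with 0 at an unadjusted p under 0.05, and 3 of 5 in the plateau, *Gjb5* (2.02), *Gja4* (1.43) and *Panx1* (0.96).

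Of 12 scaffold and partner genes, 4 were higher and 4 lower in astrocytes than in fibroblasts. Between these types 42.3% of all genes were called, so the counts of the lists here are a description. The higher ones were *Cdh2*, the neural cadherin (1.78 on the log2 scale), the kinase genes *Prkca* (1.62) and *Src* (0.90), and *Tjp1*, whose product binds the tail of *Gja1* (0.75). The lower ones were *Ccn3* (-3.17), a secreted protein reported to bind *Gja1*, the caveolin *Cav1* (-2.82), the beta-catenin gene *Ctnnb1* (-0.94) and the ubiquitin ligase *Nedd4* (-0.57). Among genes for glial potassium, water and glutamate handling, 5 were higher in astrocytes than in fibroblasts, *Aqp4* and *Slc1a2* as given above, the glutamate transporter *Slc1a3* (2.28), the potassium channel *Kcnj10* (1.80) and the bicarbonate transporter *Slc4a4* (1.74), and *Glul* was lower.

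Outside nuclei at 1 to 100 UMIs, 4 of 12 scaffold genes were higher, *Ccn3* (1.42), the drebrin gene *Dbn1* (1.18), *Ctnnb1* (1.11) and *Cav1* (0.61), and 3 were lower, *Prkca* (-1.09), *Tjp1* (-0.63) and *Cnst* (-0.55), whose product consortin takes part in the delivery of connexins to the membrane. The median of the 12 was -0.10, against -0.06 over all genes, and 40.2% of all genes were called in this comparison. In the plateau, 5 of the 12 were higher and 4 lower, where 71.7% of all genes were called. Of the glial genes, *Glul* (1.29) and *Kcnj10* (0.57) were higher at 1 to 100 UMIs. Between genotypes, none of 137 pairs of list gene and cell type was called by edgeR, and 6 had an unadjusted p under 0.05. In the interaction, none of 21 genes was called and 1 had an unadjusted p under 0.05.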

How the data were processed

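The deposited values are raw UMI counts of each gene in each barcode, which the authors made with Cell Ranger 7.0.0 on GRCm39, per the submitters' processing notes, with every barcode kept. Nuclei were called by the OrdMag threshold and a test against empty droplets (false discovery rate 0.01), filtered on genes and mitochondrial share (at most 5%), and cleared of likely doublets (0.8% per 1000 nuclei, which removed 2.88% to 5.22% per library). The removal of ambient RNA described by the study was not repeated, so background RNA remains in every level. Leiden clustering (3000 variable genes, 30 components, 15 neighbours, resolution 3) was followed by naming with marker lists, and 17 clusters (8.56% of control nuclei and 6.58% of the others) stayed unnamed and entered no test by cell type.

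Sums per library and cell type needed 10 nuclei and 1000 counts. They were tested with edgeR 4.0.16 (quasi-likelihood, TMM, filterByExpr, two-sided, Benjamini-Hochberg over all genes), with DESeq2 1.42.0 as the alternative, under R 4.3.3, scanpy 1.11.5 and leidenalg 0.10.2. The scripts were tested on simulated counts. Thinning to 1000 UMIs left out 1025 control nuclei and 938 others. All alternatives stand in the closing section, where those added after seeing the data are named. Named were all 6 members, called genes of 3 lists and the 3 genes most like each member (mean of at least 5 CPM). Members and lists were chosen with earlier results of these data known, and the contrast of astrocytes with OLs was added after the levels were seen. Sums of different cell types from 1 library come from the same pooled mice, which pairs them across cell types, and a fit with library as a block is an alternative. No label ties a library to a batch. The p-values measure the spread between libraries. Promoters were read from the GRCm39 genome with GENCODE annotation, and some further genes are not reported here.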

Additional observations from a re-analysis of the deposited data

Results flagged for a closer look

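Among 78 groups of 4 libraries examined, 5 had a library that stood apart from the other 3 by more than Dixon's criterion allows, and chance alone flags about 1 in 20 groups. Control replicate 3 had 233 CPM of *Gjb6* in fibroblasts, where the others had 105 to 121 CPM, and 99.4 CPM of *Gjb6* in barcodes of over 100 and under 500 UMIs, where the others had 39.6 to 49.5 CPM. The same library had 9.79 CPM of *Gjb2* in OLs, against 6.19 to 6.73 CPM. Control replicate 2 had 699 CPM of *Gjc3* in OPCs, against 572 to 586 CPM. Replicate 10 of the libraries labelled cKO had 105 CPM of *Gjc3* in barcodes of over 100 and under 500 UMIs, against 145 to 150.3 CPM.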

How the results depend on the processing

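Between cell types, all 32 called contrasts of the control libraries kept their call under DESeq2 (33 called in all), without TMM (32), after subtraction of the background (32) and with library as a replicate block (32). The background was subtracted from all types of a library at the lowest share estimated in it. Types with a higher share, such as T cells, can keep background after it. After thinning, 21 contrasts could be compared and 20 were called, among them all 19 called before. *Gja1* in astrocytes against fibroblasts passed under DESeq2 (0.50), after thinning (0.67), at resolution 1 (0.61) and without control replicate 1 (0.57), and *Gjb1* in OLs against T cells passed with no filter on low counts (1.12). Without TMM, the median over all genes between OLs and fibroblasts moved from 0.05 to -0.29.

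Outside nuclei, 4 members were called, against 3 without TMM, 5 for barcodes of 1 to 30 UMIs, 4 by DESeq2 and 5 with library as a replicate block, and 2 to 5 with each library left out. In the plateau the range was 4 to 6. *Gjc1* there was 0.51 with and without the block, 0.63 without control replicate 3 and 0.58 without control replicate 4, but -0.02 without TMM and -0.07 at 1 to 100 UMIs, where the median over all genes moved from -0.06 to -0.23 without TMM. The cause was not tested.

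Between genotypes, no member was called under any alternative run. Of 383 values compared, 36 changed sign, as did 6 of 60 in the interaction and 36 of 105 outside nuclei. The count over all genes depended on the tool, with 9 by DESeq2 against 0 by edgeR in astrocytes and 57 against 12 in OLs. The alternatives without TMM, with cell types in fewer libraries and with the plateau were chosen after seeing the data. No paired analysis was possible because the genotype groups share no replicate numbers. Depth limits *Gjc1*, which rests on 12 control UMIs in mural cells of 2 libraries and 30 control UMIs in endothelial cells.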

Other observations

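Some clusters that no marker list named held connexin UMIs, and they are given as pooled values chosen after the levels were seen. A cluster of 234 nuclei led by *Sfta3-ps*, *Col23a1*, *Dnah12* and *Spag16* had 337 CPM of *Gja1* from 302 UMIs, with 7.80 CPM of *Gjb2* and 6.69 CPM of *Gjb6*. *Dnah12* and *Spag16* are genes of motile cilia. A cluster of 39 nuclei with markers of endothelial and mural cells together (*Cldn5*, *Slco1a4*, *Rgs5*) had 172 CPM of *Gjc1* from 42 UMIs. A cluster of 432 nuclei led by *Aox2*, *Cyp2a5* and haemoglobin genes had 304 CPM of *Gja1* from 100 UMIs and 158 CPM of *Gjb1* from 52 UMIs. Its nuclei had a median of 0.225 times the median UMIs of their libraries, and barcodes of over 100 and under 500 UMIs in the control libraries held 313 to 449 CPM of *Gja1* and 136 to 162 CPM of *Gjb1*. The part of free RNA in the levels of this cluster was not tested. Over all unnamed clusters together, *Gja1* had 116 to 165 CPM in the control libraries and 82.2 to 142 CPM in the libraries labelled cKO, so the groups overlapped.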
